A study of Mus musculus with 6 samples.

Results

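The ROR and REV-ERB nuclear receptors were examined in the hippocampus of "Short Day" (SD) mice and control (CTR) mice. They comprised 4 of the 15423 genes in the count table, namely Rora, Rorb, Nr1d1 (REV-ERBα) and Nr1d2 (REV-ERBβ), chosen by gene symbol. The SD group held 3 C57BL/6J mice, numbered 2, 5 and 6 in the sample labels, that were conceived, born and raised with light and dark (LD) alternating every 8 h up to postnatal day 42. The CTR group held 3 C57BL/6J mice, numbered 1, 2 and 5, bred and kept with light and dark alternating every 12 h. The sources used here give neither the age and time of day at collection nor the litters of the mice. With an LD period that differs between the groups, a difference in level and a difference in the phase of a daily rhythm cannot be told apart, and the p-values rest on mouse-to-mouse spread alone, which may be technical in part.

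Levels of all 4 receptor transcripts were lower in the SD hippocampi, at 0.63 of the CTR level for Rora, 0.705 for Rorb, 0.807 for Nr1d1 and 0.817 for Nr1d2. Each was lower with an unadjusted p of at most 0.05, as were 3.68% of all genes tested. Rora also passed the fold cutoff of 0.58 (log2) and was called, as were 2.98% of all genes tested, 0.88% of them as lower. This call was lost without CTR mouse 2, where the log2 fold change was −0.37 in place of −0.67. No member had an adjusted p under 0.05 in edgeR, and Rora did in DESeq2. Of 5 clock genes under the control of these receptors none was called, and 1 was lower and 1 higher at that unadjusted p. Arntl (Bmal1), the best known of them, was at nearly the same level in SD and CTR mice. Fabp7, a REV-ERBα target outside the clock, was called higher, as were 2.1% of all genes tested. The call of Fabp7 was lost without CTR mouse 1, CTR mouse 5 or SD mouse 2.

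ROR and REV-ERB proteins are orphan nuclear receptors that compete for the same DNA sites, the ROR response elements. These sites hold the hexamer AGGTCA after an A/T-rich stretch and are bound by a single receptor molecule. RORs recruit coactivators there and raise transcription. REV-ERBs lack the helix that binds coactivators. They bind heme, recruit the corepressor NCOR1 with the histone deacetylase HDAC3, and silence the same genes, among them Arntl and Nfil3. Transcription of Nr1d1 and Nr1d2 is itself driven by CLOCK and BMAL1 through E-boxes and by PAR bZIP factors through D-boxes, which closes the stabilizing loop of the circadian clock. RORα is needed for the maturation of cerebellar Purkinje cells, is abundant in the thalamus, and is lost in the staggerer mouse. RORβ marks the middle layer of sensory neocortex and is also expressed in the retina, the thalamus and the pineal gland.

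In the GENCODE M21 annotation of GRCm38, the build also known as mm10, Rora lies on the plus strand at chr9:68653786-69388246 and spans 734.5 kb with 13071 bases of merged exons. Rorb (chr19:18930605-19111196), Nr1d1 (chr11:98767932-98775333) and Nr1d2 (chr14:18204054-18239127) lie on the minus strand. Their merged exons hold 11076, 3077 and 5409 bases. The 3′ end of Nr1d1 overlaps the thyroid hormone receptor gene Thra on the opposite strand over 1075 bases, which contain 15.9% of the exon bases of Nr1d1. Reads were counted by strand. Thra was 1060 ± 63.0 CPM in SD mice and 1003 ± 64.6 CPM in CTR mice (± standard deviation, n = 3 each) with a log2 fold change of 0.08 (unadjusted p = 0.36, adjusted p = 0.84 in edgeR). CPM are counts scaled to the library total with the TMM factors of edgeR, and values after ± are standard deviations. An antisense gene model covers 1.71% of the exon bases of Rora, and the count table does not hold it.

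RefSeq promoter windows of GRCm38.p6, 250 bases before to 50 bases after each start, were found for all 4 members and searched on both strands for the ROR element core AGGTCA, the E-box CACGTG, the E′-box CACGTT and the D-box TTANGTAA. Sequences are shown for the windows with a match, to show where these letters lie before the start. They run 5′ to 3′ on the strand of the gene, end before the earliest annotated start that falls in the window, and have the matches in capitals. Fabp7 is added as the only gene of the pathway lists below, outside the members, that was called.
Nr1d1, minus strand, chr11:98775378-98775627, E′-box read on the other strand: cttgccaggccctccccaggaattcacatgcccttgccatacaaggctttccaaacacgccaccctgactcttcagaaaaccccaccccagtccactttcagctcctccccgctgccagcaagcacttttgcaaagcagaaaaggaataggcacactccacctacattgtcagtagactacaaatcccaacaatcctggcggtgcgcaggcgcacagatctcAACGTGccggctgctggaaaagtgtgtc
Nr1d2, minus strand, chr14:18239128-18239356, ROR element core: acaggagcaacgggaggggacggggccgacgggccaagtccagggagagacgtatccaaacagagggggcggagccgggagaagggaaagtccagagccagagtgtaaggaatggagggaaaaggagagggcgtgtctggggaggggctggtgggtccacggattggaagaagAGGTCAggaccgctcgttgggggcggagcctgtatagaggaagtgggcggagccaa
Rorb, internal start, minus strand, chr19:19001118-19001367, E′-box and D-box read on the other strand: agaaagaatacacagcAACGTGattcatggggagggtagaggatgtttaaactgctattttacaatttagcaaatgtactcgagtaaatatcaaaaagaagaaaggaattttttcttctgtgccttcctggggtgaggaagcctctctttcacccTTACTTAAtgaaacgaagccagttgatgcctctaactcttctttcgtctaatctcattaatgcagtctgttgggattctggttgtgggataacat
Fabp7, plus strand, chr10:57784673-57784880, ROR element core read on the other strand: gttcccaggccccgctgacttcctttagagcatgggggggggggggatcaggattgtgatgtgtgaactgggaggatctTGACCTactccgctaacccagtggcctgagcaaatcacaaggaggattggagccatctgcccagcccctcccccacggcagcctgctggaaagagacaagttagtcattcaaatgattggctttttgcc

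The E′-box of Nr1d1 begins 28 bases before its start, and the ROR element core of Nr1d2 77 bases before. Rorb has 2 RefSeq starts. Its internal start has the E′-box 234 bases and the D-box 95 bases before it, and its upstream start has none of the 4 motifs. The window of Rora has none either. Of all 32851 promoter windows, 16.3% hold the ROR element core, 7.15% the E-box, 4.68% the E′-box and 2.32% the D-box. Among the known targets, the core was found 32 bases after a start of Arntl, 119 bases before a start of Clock, 12 bases before the start of Nfil3 and 171 bases before that of Fabp7. It was not found in the windows of Npas2 and Cry1, nor in the other window of Arntl and the other 2 windows of Clock. These matches are letters in a window and not sites of binding.

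Rora encodes RORα, the activator of the family with the widest role in the brain. Its level was 55.8, 58.6 and 50.2 CPM in SD mice 2, 5 and 6, against 73.4, 120.0 and 68.1 CPM in CTR mice 1, 2 and 5. All 3 SD mice lay below all 3 CTR mice, and CTR mouse 2 stood far above the others. The means were 54.9 ± 4.24 CPM in SD mice and 87.1 ± 28.6 CPM in CTR mice (± standard deviation, n = 3 each). The log2 fold change was −0.67 (SE 0.18, unadjusted p = 0.0047, adjusted p = 0.51 in edgeR), and DESeq2 gave an adjusted p of 0.038. Without CTR mouse 2 the log2 fold change was −0.37 and Rora was no longer called, although its unadjusted p stayed at 0.0051 (edgeR, adjusted p = 0.62). Rora therefore fell past the fold cutoff only with this mouse.

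Rorb encodes RORβ and had the lowest counts of the 4 members, between 420 and 614 per mouse. It was 16.3, 16.1 and 13.4 CPM in SD mice 2, 5 and 6, against 21.8, 25.3 and 18.0 CPM in CTR mice 1, 2 and 5. The groups did not overlap, and CTR mouse 2 was again the highest. The means were 15.3 ± 1.61 CPM in SD mice and 21.7 ± 3.68 CPM in CTR mice (± standard deviation, n = 3 each), with a log2 fold change of −0.50 (SE 0.14, unadjusted p = 0.0050, adjusted p = 0.51 in edgeR, 0.13 in DESeq2). Rorb thus missed the fold cutoff of 0.58 with all 6 mice. Without CTR mouse 5, the lowest CTR mouse, it was −0.63 and Rorb was called.

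Nr1d1 encodes REV-ERBα, the stronger clock repressor of the pair. Its level was 68.9, 72.17 and 63.8 CPM in SD mice 2, 5 and 6, against 95.7, 86.0 and 72.22 CPM in CTR mice 1, 2 and 5. SD mouse 5 and CTR mouse 5 were all but equal, 0.0476 CPM apart, and with the size factors of DESeq2 in place of TMM their order turned and the groups overlapped. Means were 68.3 ± 4.21 CPM in SD mice and 84.6 ± 11.8 CPM in CTR mice (± standard deviation, n = 3 each). The log2 fold change was −0.31 (SE 0.11, unadjusted p = 0.016, adjusted p = 0.55 in edgeR, 0.35 in DESeq2). Unlike the RORs, Nr1d1 was highest in CTR mouse 1, and without that mouse the log2 fold change was −0.21 (unadjusted p = 0.062 in edgeR).

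Nr1d2 encodes REV-ERBβ, which shares most target genes with REV-ERBα. It had the highest CPM of the members, with 118, 123 and 96.1 CPM in SD mice 2, 5 and 6, against 132, 145 and 136 CPM in CTR mice 1, 2 and 5. The groups did not overlap, and the 3 CTR mice lay close together, with a coefficient of variation of 12.9% in SD mice and 4.63% in CTR mice. The means were 113 ± 14.5 CPM in SD mice and 138 ± 6.38 CPM in CTR mice (± standard deviation, n = 3 each). The log2 fold change was −0.29 (SE 0.10, unadjusted p = 0.016, adjusted p = 0.55 in edgeR, 0.32 in DESeq2). Here the low value of SD mouse 6 weighed most, and without it the log2 fold change was −0.19 (unadjusted p = 0.063 in edgeR).

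**Figure D1:**
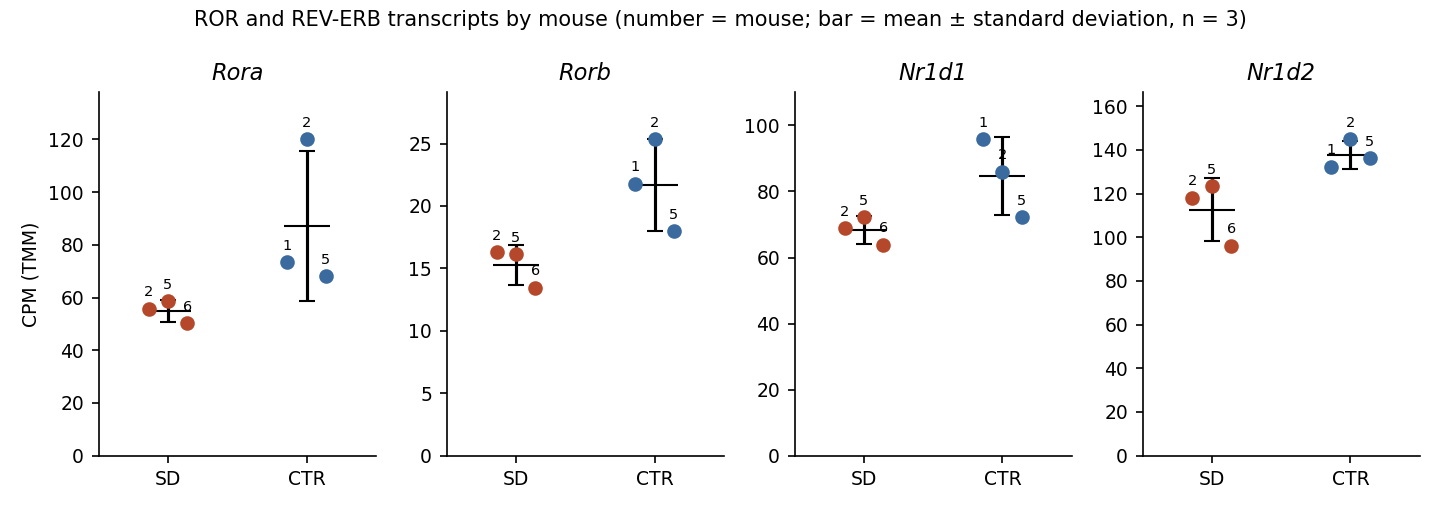
Levels of the 4 receptor transcripts by mouse, in CPM on a linear axis from 0, with SD mice (red) left of CTR mice (blue), the mouse number above each point, and the mean ± standard deviation of 3 mice in black. SD mouse 6 is the lowest SD mouse in every panel, and CTR mouse 2 stands apart for Rora at 120.0 CPM.

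All 4 members were lower in SD mice with an unadjusted p of at most 0.05 in edgeR, and 3.68% of the 15345 genes tested were lower and 4.65% higher at that p. At both cutoffs 1 member was called, lower, where 2.98% of all genes tested were called, 0.88% lower and 2.1% higher. For all 4 members every SD mouse lay below every CTR mouse in CPM, though for Nr1d1 not with the size factors of DESeq2, and this held for 6.2% of all genes tested. The number of members at an unadjusted p of at most 0.05 was 3 without CTR mouse 1 or CTR mouse 2, 2 without SD mouse 6, and 4 without any other mouse. Counting error alone gives a coefficient of variation of 1.82% to 4.88% at the lowest count of each member, for each member below its variation among SD mice and among CTR mice.

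**Figure D2:**
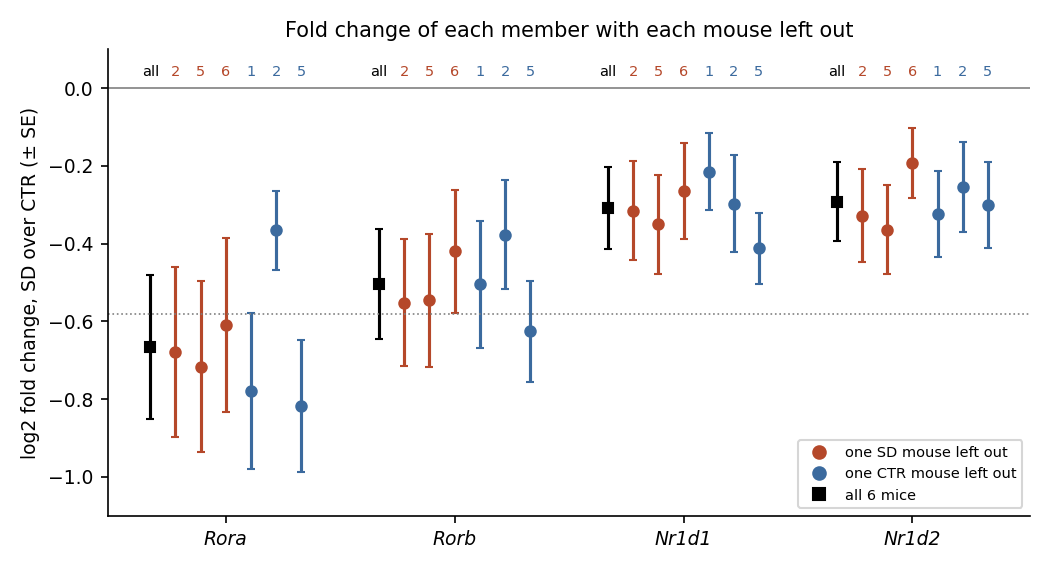
Log2 fold change of each member, SD over CTR, from edgeR with all 6 mice (black square) and with each SD mouse (red) or CTR mouse (blue) left out, the number above naming the mouse left out. Bars are standard errors, the dotted line is the fold cutoff of −0.58, and Rora moves to −0.37 without CTR mouse 2 while every value stays below 0.

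Per kb of merged exons, the REV-ERB transcripts were more abundant than the ROR transcripts in both groups. Nr1d1 was 22.2 ± 1.37 CPM per kb in SD mice and 27.5 ± 3.84 CPM per kb in CTR mice (± standard deviation, n = 3 each). Nr1d2 was close to it, at 20.8 ± 2.68 CPM per kb in SD mice and 25.5 ± 1.18 CPM per kb in CTR mice, and these neighbours did not differ beyond their spread. Rora followed with 4.20 ± 0.324 CPM per kb in SD mice and 6.67 ± 2.19 CPM per kb in CTR mice. Rorb had 1.38 ± 0.146 CPM per kb in SD mice and 1.96 ± 0.332 CPM per kb in CTR mice. Merged exons include those of minor transcripts, of which Rora has the most with 6 annotated transcripts, and this lowers a level per kb.

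To see whether the members differed from each other in their change, the log2 ratios of the 6 pairs of members were compared. The ratio of Rora to Nr1d2 was −1.08, −1.08 and −0.935 in SD mice 2, 5 and 6, against −0.850, −0.271 and −0.9999 in CTR mice 1, 2 and 5. Its mean was 0.32 lower in SD mice (exact two-sided permutation test, p = 0.2, adjusted p = 0.6 over the 6 pairs), and CTR mouse 5 lay inside the SD range. The ratio of Rora to Nr1d1 differed by −0.32 and that of Rorb to Nr1d2 by −0.20 (exact permutation tests, p = 0.4 and 0.3). The Nr1d1 to Nr1d2 ratio differed by −0.0025 (exact permutation test, p = 1), with −0.71 ± 0.11 in SD mice and −0.71 ± 0.23 in CTR mice. With 3 mice a group this exact test cannot go below p = 0.1, and the 6 pairs gave p-values of 0.2 to 1. The larger fold changes of the RORs were therefore not shown to differ from those of the REV-ERBs.

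Across the 6 mice the members followed each other. Pearson's r of log2 CPM was 0.941 between Rora and Rorb, 0.888 between Rorb and Nr1d1, 0.880 between Rorb and Nr1d2, 0.805 between Rora and Nr1d2, 0.723 between Nr1d1 and Nr1d2, and 0.715 between Rora and Nr1d1. These values pool both groups, share the same libraries and are given as a description. Of 10098 genes with a mean of at least 10 CPM, those whose pattern was most like Rora were Elmo1 (r = 0.998), Mb21d2 (0.989) and Trim37 (0.989). Garnl3 (0.989), Kpna6 (0.988) and Sun2 (0.983) were nearest to Rorb. For Nr1d1 they were Pitpnm3 (0.994), Srgap2 (0.991) and Ddhd1 (0.991), and for Nr1d2 Agfg1 (0.987), Golga1 (0.984) and Hecw2 (0.983). No name was shared between the 3 nearest genes of each member. Between 24 and 67 genes had r over 0.95 with a given member, and these larger sets were not compared with each other.

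The genes that RORs activate and REV-ERBs repress in the clock were measured next. Of 5 listed genes none was called, 1 was lower and 1 higher at an unadjusted p of at most 0.05, and the median log2 fold change was −0.10, against 0.00149 over all genes tested. None of the 5 reached that p without SD mouse 5 or SD mouse 6, and 1 was called higher without SD mouse 2. Arntl, which encodes the CLOCK partner BMAL1, was 24.6, 28.2 and 30.1 CPM in SD mice 2, 5 and 6, against 24.7, 27.0 and 30.1 CPM in CTR mice 1, 2 and 5. The groups overlapped over their whole range, with a log2 fold change of 0.02 (SE 0.11, unadjusted p = 0.86, adjusted p = 0.98 in edgeR). Clock had a log2 fold change of −0.10, and Npas2, which can stand in for CLOCK in the forebrain, one of −0.24 (unadjusted p = 0.039, adjusted p = 0.58 in edgeR). Nfil3, a repressor that acts at D-boxes, was 7.10, 10.8 and 10.9 CPM in SD mice 2, 5 and 6, against 6.40, 7.34 and 6.93 CPM in CTR mice 1, 2 and 5, and was named after its values were seen. SD mouse 2 lay within the CTR range and SD mice 5 and 6 lay above it (log2 fold change 0.48, SE 0.18, unadjusted p = 0.020, adjusted p = 0.55 in edgeR).

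Fabp7, a brain fatty acid binding protein of astrocytes and neural progenitors, is repressed by REV-ERBα in the mouse brain. It was 21.9, 16.5 and 19.7 CPM in SD mice 2, 5 and 6, against 10.5, 15.7 and 11.9 CPM in CTR mice 1, 2 and 5. All SD mice lay above all CTR mice, SD mouse 5 and CTR mouse 2 narrowly so. Fabp7 rose past the cutoffs, with a log2 fold change of 0.61 (SE 0.16, unadjusted p = 0.0036, adjusted p = 0.51 in edgeR, 0.078 in DESeq2). The value dropped below the fold cutoff without CTR mouse 1 (0.49), CTR mouse 5 (0.56) or SD mouse 2 (0.51). Fabp7, the only gene of its list, was the only listed target that was called. Of all genes tested 2.1% were called higher, and the lists were chosen with earlier results of these data known. Of 6 genes that RORα activates in Purkinje cells none was called, Itpr1, the inositol trisphosphate receptor, had a log2 fold change of −0.18 (unadjusted p = 0.039, adjusted p = 0.58 in edgeR), and Calb1, a calcium buffer, one of 0.16. A gene of this list had an unadjusted p of at most 0.05 without SD mouse 6 or CTR mouse 5 and none did without any other mouse. Purkinje cells are not hippocampal cells, and Pcp2, which is specific to them, was 0.758 ± 0.674 CPM in SD mice and 0.526 ± 0.442 CPM in CTR mice (± standard deviation, n = 3 each).

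Other genes with E-boxes and the genes of the D-box activators were measured next, and none was called. Among 8 period, cryptochrome and other E-box driven repressors, 0 were called, 4 were lower at an unadjusted p of at most 0.05, and the median log2 fold change was −0.21. The 4, named after their values were seen except Cry2, were Bhlhe41 (−0.32), Per2 (−0.30), Per3 (−0.27) and Cry2 (−0.18), and Bhlhe40 was at −0.10. With a mouse left out this count was lower, at 1 without SD mouse 2 or SD mouse 6, 2 without CTR mouse 1 and 3 without any other mouse. Cry1 belongs to this list and also to the 5 clock genes above, so it enters both medians. Of the 3 PAR bZIP activators of D-boxes, 2 were lower at that p, against 1 without SD mouse 5, CTR mouse 1 or CTR mouse 2, and 3 without CTR mouse 5. Hlf was 150, 193 and 174 CPM in SD mice 2, 5 and 6, against 214, 239 and 218 CPM in CTR mice 1, 2 and 5, with no overlap and a log2 fold change of −0.38 (SE 0.10, unadjusted p = 0.0039, adjusted p = 0.51 in edgeR, 0.078 in DESeq2). Tef was 422 ± 15.8 CPM in SD mice and 488 ± 31.2 CPM in CTR mice (± standard deviation, n = 3 each), a log2 fold change of −0.21.

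No gene of the partners of the receptors was called. Of 7 corepressor genes none was called or reached an unadjusted p of 0.05, with a median log2 fold change of −0.06. Ncor1, the main corepressor of REV-ERB, was 280 ± 5.05 CPM in SD mice and 292 ± 10.9 CPM in CTR mice (± standard deviation, n = 3 each). Of 8 coactivator genes none was called, 2 were lower at an unadjusted p of at most 0.05 (Ncoa2 at −0.19 and Ppargc1b, named after its value was seen, at −0.25), and the median was −0.13. These 2 became 0 without SD mouse 6 and 1 without any other mouse except CTR mouse 2. Ncoa1 was at −0.14. Among 6 genes of the kinases and ubiquitin ligases that set the stability of REV-ERB proteins, none was called and Mycbp2, a ligase gene, was lower at that p with −0.20, while Huwe1 was at −0.13. With a mouse left out a gene of this list reached that p only without SD mouse 2 or CTR mouse 2. None of 10 genes of the synthesis and breakdown of heme, the REV-ERB ligand, was called or reached that p, and the median was 0.05. Hmox2 and Fech, which break down and complete heme, had log2 fold changes of 0.19 and 0.08.

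**Figure D3:**
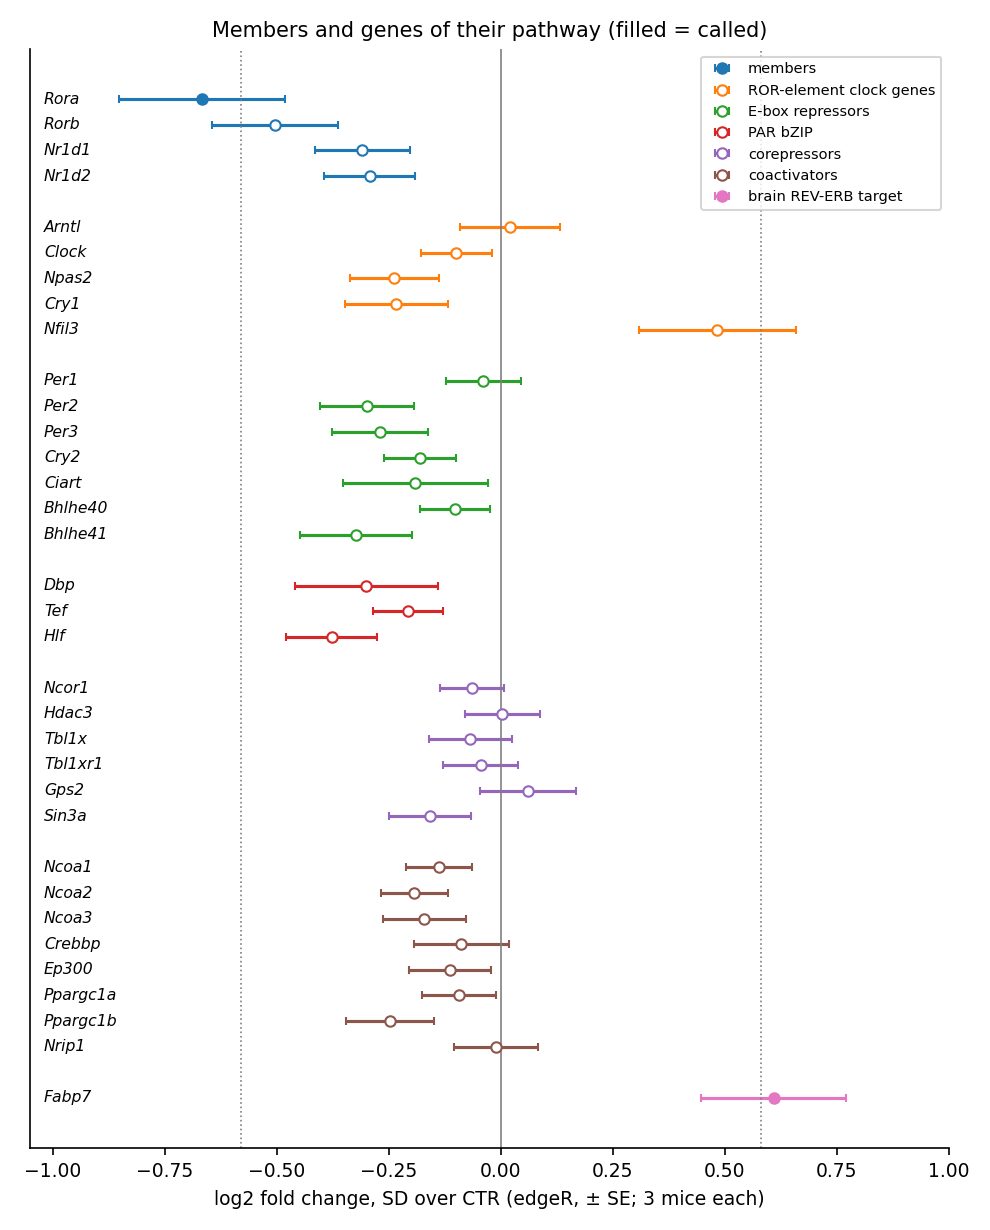
Log2 fold change, SD over CTR, with its standard error from edgeR (3 mice each) for the 4 members and genes of their pathway, coloured by list. Filled points passed both cutoffs and dotted lines mark the fold cutoff of 0.58. Rora (−0.67) and Fabp7 (0.61) are the filled points, and corepressors and Arntl lie near 0.

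Rora and Rorb are also abundant in thalamus and neocortex. All 11 thalamic markers and 6 of the 8 neocortical markers had a negative log2 fold change. The markers of the labelled tissue were present, with a summed level over 11 hippocampal principal neuron genes of 1615 to 1744 CPM in SD mice and 1743 to 1760 CPM in CTR mice, and none of them was called. Of 11 thalamic genes, 8 were called lower (5 in DESeq2) with a median log2 fold change of −0.75, among them the transcription factor genes Shox2 and Tcf7l2. Their summed level was 143 to 182 CPM in SD mice and 160 to 364 CPM in CTR mice, with Gbx2 at 0 in a mouse of the SD group. The highest sum was that of CTR mouse 2, the mouse with the highest Rora and Rorb. Without that mouse 2 of the 11 thalamic genes were called lower and their median was −0.21, while Rora was at −0.37 and Rorb at −0.38. Calls on this list were also lost when an SD mouse was left out, with 2 genes called without SD mouse 6 (median −0.81), 4 called without SD mouse 5 and 5 called without SD mouse 2. CTR mouse 1 had a thalamic sum of 160 CPM, inside the SD range, and levels of all 4 members above those of every SD mouse. Its mean log2 CPM over the neocortical list was 3.921, against 3.704 to 3.805 in SD mice. Over the choroid plexus list its mean was 5.38, against 5.829 to 7.253 in SD mice. This mouse also had the highest share of ribosomal precursor RNA, at 1.84% of its counts. Across the 6 mice r with the mean of the thalamic list was 0.909 for Rora, 0.779 for Rorb, 0.722 for Nr1d2 and 0.411 for Nr1d1. With the mean of the neocortical list r was 0.919 for Rora, 0.811 for Rorb, 0.682 for Nr1d2 and 0.579 for Nr1d1. These values are a description over shared libraries. In bulk tissue, fewer cells of a type and less RNA per cell cannot be told apart.

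**Figure D4:**
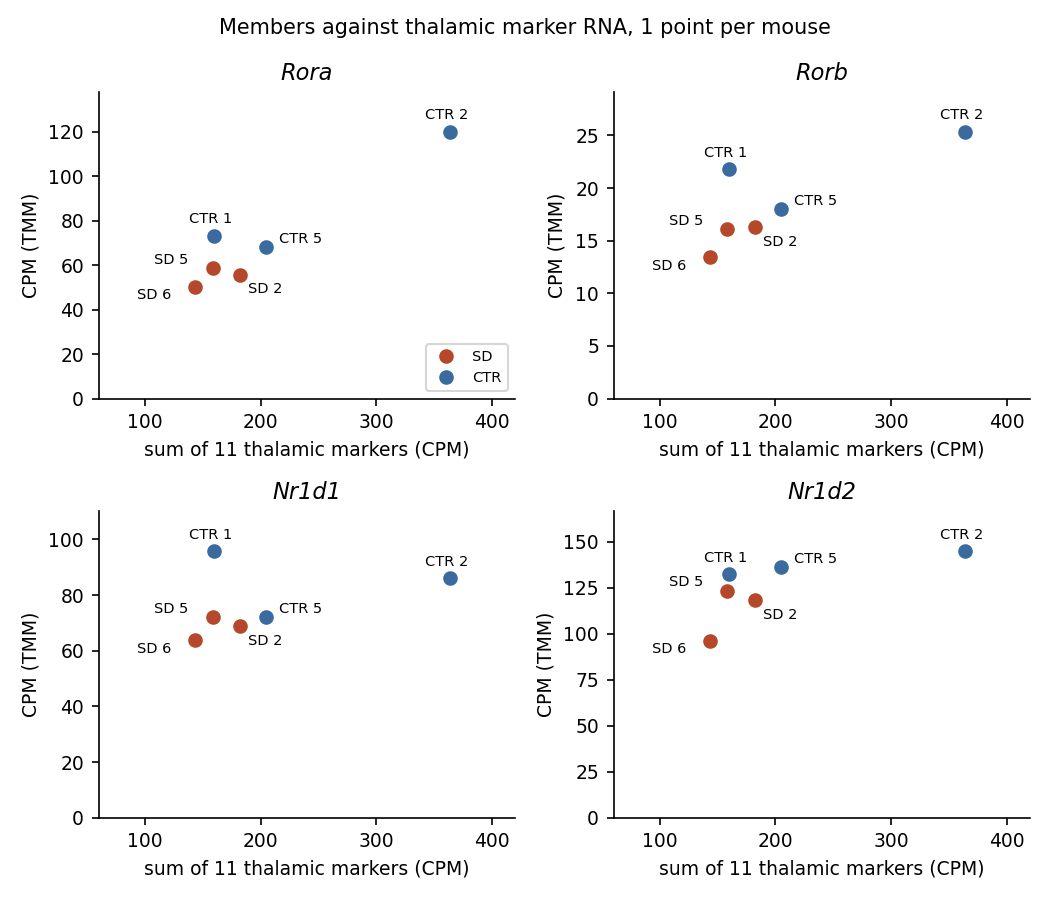
Level of each member (CPM, axis from 0) against the summed CPM of 11 thalamic markers, 1 point per mouse, SD mice in red and CTR mice in blue. CTR mouse 2 stands alone at 364 CPM of thalamic RNA, and CTR mouse 1, at 160 CPM, lies over the SD mice in all 4 panels. The part of thalamic RNA in the levels of the members was not tested.

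Genes of other cell type lists were called as well. Of 8 neocortical genes, 2 were called lower, Foxp2 among them, with a summed level of 166 to 195 CPM in SD mice and 196 to 244 CPM in CTR mice. Without CTR mouse 2 none of the 8 was called or reached an unadjusted p of 0.05, 1 was called without SD mouse 2 or SD mouse 6, and Foxp2 also lost its call without SD mouse 5 or SD mouse 6. Of 10 choroid plexus genes 9 were called higher (5 in DESeq2), with a sum of 3978 to 11129 CPM in SD mice and 417 to 4648 CPM in CTR mice. Leaving out SD mouse 6 brought the calls to 3, leaving out SD mouse 5 to 4, and leaving out CTR mouse 1 to 5. Their mean ran against the members, with r of −0.947 for Rora, −0.895 for Rorb, −0.703 for Nr1d2 and −0.639 for Nr1d1 over the 6 mice. All 6 oligodendrocyte genes were higher at an unadjusted p of at most 0.05 and Opalin, a myelin gene, was called, with a sum of 6914 to 8508 CPM in SD mice and 5297 to 7017 CPM in CTR mice. Without SD mouse 6, 3 of the 6 reached that p and none was called, without CTR mouse 1 Opalin (0.51) was not called, and without CTR mouse 2, 3 were called. Both hypothalamic genes analysed of 6 listed, Hdc and Trh, were called higher, with a sum of 3.88 to 21.8 CPM in SD mice and 1.86 to 4.37 CPM in CTR mice, and 1 was called without SD mouse 2 or CTR mouse 1. No gene of the astrocyte (8), microglia (5), interneuron (7) or endothelial (3) lists was called. The part of these lists in the levels of the members was not tested. The values without single mice cannot test it, since members and markers of a mouse leave together.

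Over the whole series, total counts were 25755316 to 34447082 in SD mice and 23300710 to 30035148 in CTR mice. No gene reached an adjusted p under 0.05 in edgeR, where 1277 had an unadjusted p of at most 0.05, and 56 reached it in DESeq2. Sex was not balanced, since the female RNA Xist had 0 to 20 counts in the SD mice, against 30044 in CTR mouse 5 and 0 and 2 in the other CTR mice. Without CTR mouse 5 all 4 members remained lower, with log2 fold changes of −0.82 for Rora, −0.63 for Rorb, −0.41 for Nr1d1 and −0.30 for Nr1d2 among mice that were all male by this measure. Ribosomal precursor RNA took 0.207% to 0.231% of the counts of SD mice, against 1.84% in CTR mouse 1 and 0.164% and 0.221% in the other CTR mice, and without CTR mouse 1 Rora was at −0.78, Rorb at −0.50, Nr1d1 at −0.21 (unadjusted p = 0.062 in edgeR) and Nr1d2 at −0.32.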

How the data were processed

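Hippocampal RNA of 3 SD and 3 CTR mice was selected for poly(A) and sequenced. For the RNA extraction the labels name cells and spheroids, the study's methods hippocampal tissue. The authors' deposited counts per gene came from featureCounts (stranded, multi-mapping reads kept), after trimming (Trim Galore) and alignment to mm10 (Hisat2). Versions and annotation: not given in the sources used here. Each deposited count column was assigned to the mouse whose title it repeats. The authors' own fold changes, p-values and normalized means in the same table were not used.

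The table holds 15423 genes with at least 40 counts over the 6 mice. In R 4.3.3, filterByExpr of edgeR 4.0.16 kept 15345, which were scaled by TMM and tested by glmQLFit and glmQLFTest, SD over CTR, without covariates, and adjusted by Benjamini-Hochberg over all of them. A standard error is the log2 fold change over the root of F. A call needed, as in the study's methods, an unadjusted p of at most 0.05 together with a log2 fold change of 0.58 or more in size. DESeq2 1.42.0 was an alternative, as were other scalings, filters and thresholds, each mouse left out, and a replicate block. Log2 ratios of members used a prior count of 2 and an exact two-sided permutation test. The edgeR script was tested on simulated data.

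The members and gene lists were chosen with earlier results of these data known. Genes named are the members, Arntl, Thra, up to 4 called genes of each list by smallest p (for a list with none, the 2 of highest mean), and 3 genes nearest to each member by Pearson's r. Others are marked as named after their values were seen, except Pcp2, named for what it marks. Markers in the rule but without a call are mostly left out, and some genes of the lists are not reported here.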

Additional observations from a re-analysis of the deposited data

How the results depend on the processing

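All 4 members kept a negative log2 fold change under each alternative that was run. Rora was called with DESeq2 size factors, total counts, DESeq2, no filter and a mean count of at least 50. It was also called with the replicate block, which compares only mice 2 and 5 of each group and so keeps CTR mouse 2. Called members numbered 0 and Rora (−0.67) was not called at an adjusted p under 0.05. With the unadjusted p alone 4 were called, adding Rorb (−0.50), Nr1d1 (−0.31) and Nr1d2 (−0.29). With each mouse left out, Rora ran from −0.82 to −0.37, Rorb from −0.63 to −0.38, Nr1d1 from −0.41 to −0.21 and Nr1d2 from −0.36 to −0.19, and called members from 0 (without CTR mouse 2) to 2 (without CTR mouse 5). Genes called numbered 457 in all, 316 with DESeq2, 265 at a mean count of at least 50, 0 at an adjusted p under 0.05, 1277 with the unadjusted p alone, 315 with the replicate block, and 242 (without SD mouse 6) to 707 (without CTR mouse 5) with a mouse left out. The cause was not tested.

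Differences in pair log2 ratios ran, with each mouse left out, from −0.24 to 0.0081 for Rora over Rorb, positive without CTR mouse 2, and from −0.10 to 0.12 for Nr1d1 over Nr1d2, positive without CTR mouse 1 (0.12), SD mouse 2 (0.029) or SD mouse 5 (0.028). The other 4 pairs stayed negative, from −0.51 to −0.08 for Rora over Nr1d1, −0.47 to −0.10 for Rora over Nr1d2, −0.28 to −0.09 for Rorb over Nr1d1 and −0.32 to −0.11 for Rorb over Nr1d2.

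Mouse numbers 2 and 5 occur in both groups, and deviations of same-numbered mice correlated at 0.208 and 0.116. Those of differently numbered mice ran from −0.155 to 0.118. With only 2 same-numbered pairs, the numbers were not taken as pairing. The replicate block compares only mice 2 and 5 of each group. CTR mouse 1 and SD mouse 6 have no mouse of their number in the other group and do not enter its log2 fold change. With the replicate block the log2 fold change was −0.66 for Rora (called), −0.39 for Rorb, −0.16 for Nr1d1 and −0.22 for Nr1d2. Nr1d1 then had an unadjusted p of 0.18 in edgeR, so that 3 of the 4 members stayed at an unadjusted p of at most 0.05. The lowest count of a member was 420.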
